A study of Homo sapiens with 28 samples.

Results

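The 35 genes described here encode the glucose transporters, the enzymes of glycolysis, the enzymes that set the level of fructose-2,6-bisphosphate, the enzymes that decide the fate of pyruvate, and the enzymes of gluconeogenesis. They were taken by name out of 63139 genes counted by RNA sequencing in HepG2 cells, a human liver tumour cell line, and all 35 were found. Of these, 34 had enough reads to be tested and 1, LDHB, did not. Cells had been grown in high-glucose medium, kept in medium without serum over 24 h, and exposed over the next 24 h, so every group, controls included, shares the serum-free step. There were 7 groups of 4 libraries: water (H2O), 0.5 µM cadmium chloride (CdCl2) with water as its control, dimethyl sulfoxide (DMSO, at most 0.1% of the medium), and, with DMSO as control, 100 nM of the dioxin TCDD, 10 µM of the fluorinated surfactant PFOS, 75 µM bisphenol A (BPA) and 0.1 µM tributyltin chloride (TBTCl). The submitters exchanged the names of the TCDD and PFOS libraries after deposit, and the names after that exchange are used. CYP1A1, the classic dioxin target, stood at 2841 to 6410 CPM (normalised read count, scaled to the depth of each library) in the 4 libraries labelled TCDD and at 1.495 to 462 CPM in the other 24.

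Glycolysis splits glucose into pyruvate in the cytosol, and gluconeogenesis rebuilds glucose from lactate, amino acids and glycerol. Most steps are shared and reversible. Hexokinase, phosphofructokinase and pyruvate kinase run only forward and are bypassed in the liver by glucose-6-phosphatase, fructose-1,6-bisphosphatase, and the pair of pyruvate carboxylase and phosphoenolpyruvate carboxykinase. A normal hepatocyte uses the transporter GLUT2, glucokinase and the liver pyruvate kinase, whereas dividing and tumour cells rely on GLUT1, hexokinase 2, PKM and lactate dehydrogenase A, many of whose genes are targets of hypoxia-inducible factor.

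Total counts ran from 28.9 M to 66.04 M per library (median 46.5 M), and the 35 genes took 0.949% to 2.29% of them, with 0.949% to 1.32% in BPA and 1.14% to 2.09% in DMSO. The hepatocyte markers ALB, APOA1, APOB, TTR, TF, SERPINA1, FGB, AFP and HNF4A were present in every library, and their summed level was 26561 to 42188 CPM in BPA, 35603 to 52719 CPM in TCDD and 39307 to 72309 CPM in DMSO. The 11 markers of leukocytes, endothelium, stroma and bile duct summed to 51.2 to 70.3 CPM in BPA, 47.1 to 57.7 CPM in TCDD and 61.1 to 67.0 CPM in DMSO, with ACTA2 at 20.7 to 54.9 CPM in all libraries. PTPRC had no read in 23 of 28 libraries, and KRT7 none in 2. With BPA, 3 of the 9 hepatocyte markers were lower (TF -0.99, FGB -0.99 and AFP -1.33 on the log2 scale) and HNF4A was higher (0.48), and of 8 tested markers of other cells CD14 was higher (1.45 to 10.9 CPM) and PECAM1 lower (5.34 to 2.61 CPM). With TCDD, no hepatocyte marker was called, LUM was higher (0.0116 to 1.01 CPM) and PDGFRB lower (15.0 to 5.43 CPM). Over all tested genes, BPA raised 17.3% and lowered 17.6%, and TCDD raised 6.45% and lowered 2.8%. Mitochondrially encoded genes took 3.55% to 8.23% of counts, and antisense genes 0.179% to 0.206% in BPA against 0.222% to 0.235% in DMSO. The part of these differences in the results below was not tested. In bulk RNA, fewer cells that express a gene and less RNA per cell cannot be told apart.

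Promoter windows, from 250 bases before to 50 bases after an annotated start, were at hand for 32 of the 35 genes in RefSeq (build GRCh38.p14). These genes have 66 windows, and all 27305 genes in the table have 35116. The genes described here thus have more windows each and more chances of a match, so shares are given per window. Windows of a gene can overlap and then count the same site more than once, as in G6PC3 and PFKM. The effect of this on the shares was not tested. The core of the hypoxia response element, ACGTG on either strand, was in 26 of the 66 windows (20 of the 32 genes) and in 21.4% of all windows. The symmetrical E-box CACGTG, which contains that core and is also the motif of MYC and of the carbohydrate response factor, was in 11 windows (9 genes), against 7.26% of all windows. The dioxin response letters TNGCGTG were in 1 window, that of ENO1, against 5.51% of all, and the shorter GCGTG inside them was in 22 of 66 windows against 36.5% of all. The letters TGATGNAAT, those of ATF4 with a CEBP partner, were in 2 overlapping windows of HK1, against 0.991% of all, and the antioxidant letters TGACNNNGC in 5 windows against 13.3% of all. All were searched on both strands. A match is a description of the sequence and says nothing about binding in these cells, and a missing match says only that the letters are not in the window. The hypoxia core is also in windows of genes called with neither BPA nor TCDD against DMSO, such as GAPDH, G6PC3, SLC16A3, GPI and ENO2. Stretches from 4 genes whose counts moved are printed because they show where the core lies, with every ACGTG on either strand in capitals, 5′ to 3′ on the strand of the gene. The stretch of HK2 lies inside the gene, in front of its second RefSeq start (chr2:74834920-74835169, plus strand), and holds the E-box at 2 places. That of PKLR (chr1:155301439-155301688, minus strand) and that of LDHA (chr11:18394313-18394387, plus strand) lie directly upstream of the gene and hold it once. The LDHA stretch is only the first 75 bases of its window. Past it, the window holds the E-box again, at -87 to -82 from the RefSeq start, and the core at -73 to -69. The stretch of PC (chr11:66958384-66958633, minus strand) lies upstream of the gene and holds ACGTG at 2 places, neither as an E-box.
HK2: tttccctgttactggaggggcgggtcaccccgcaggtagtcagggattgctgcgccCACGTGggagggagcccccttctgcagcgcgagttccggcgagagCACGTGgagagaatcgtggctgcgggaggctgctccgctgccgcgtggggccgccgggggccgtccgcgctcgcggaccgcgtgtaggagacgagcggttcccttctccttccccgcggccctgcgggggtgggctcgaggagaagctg
PKLR: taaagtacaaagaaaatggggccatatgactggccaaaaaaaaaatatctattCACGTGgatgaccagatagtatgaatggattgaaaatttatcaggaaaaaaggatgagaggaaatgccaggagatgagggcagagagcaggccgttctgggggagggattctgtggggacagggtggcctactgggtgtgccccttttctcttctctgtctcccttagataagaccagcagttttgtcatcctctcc
LDHA: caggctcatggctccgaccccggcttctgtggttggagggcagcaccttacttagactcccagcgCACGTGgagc
PC: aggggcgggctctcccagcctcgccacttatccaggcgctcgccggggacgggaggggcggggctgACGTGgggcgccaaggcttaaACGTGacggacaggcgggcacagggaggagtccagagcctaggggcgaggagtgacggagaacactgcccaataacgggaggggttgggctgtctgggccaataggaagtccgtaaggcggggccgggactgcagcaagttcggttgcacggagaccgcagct

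In the DMSO libraries the highest levels belonged to the triose steps of glycolysis and to lactate production. Per kilobase of transcript, GAPDH led at 1710 ± 309 CPM per kb (SD, n = 4), followed by ENO1 at 1176 ± 443, LDHA at 742 ± 168, TPI1 at 720 ± 116 and PKM at 478 ± 148. Each of these differed from its neighbour in the order by less than their summed SDs. On this scale a wide gap, to SLC16A3, the lactate exporter MCT4, at 174 ± 48.8 CPM per kb, separated them from the rest. Without the scaling by length the gap was absent: TPI1 stood at 887 ± 143 CPM, SLC16A3 at 841 ± 236 CPM and PGK1 at 660 ± 234 CPM. At the low end stood PCK1 (1.76 ± 0.606), PFKM (1.15 ± 0.218), HK1 (0.767 ± 0.390) and FBP1 (0.528 ± 0.130), all in CPM per kb. LDHB, the heart-type lactate dehydrogenase subunit, had a single read among 1279 M counts of all 28 libraries. Its level is uncertain, because its locus is shared with another annotated protein-coding gene on the same strand. One isoenzyme dominated several families: of the length-scaled level, HK2 made up 98.8% ± 0.39 of HK1 and HK2, PFKL 96.8% ± 0.32 of the phosphofructokinases, and PCK2, the mitochondrial carboxykinase, 98.8% ± 0.19 of PCK1 and PCK2.

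**Figure D1:**
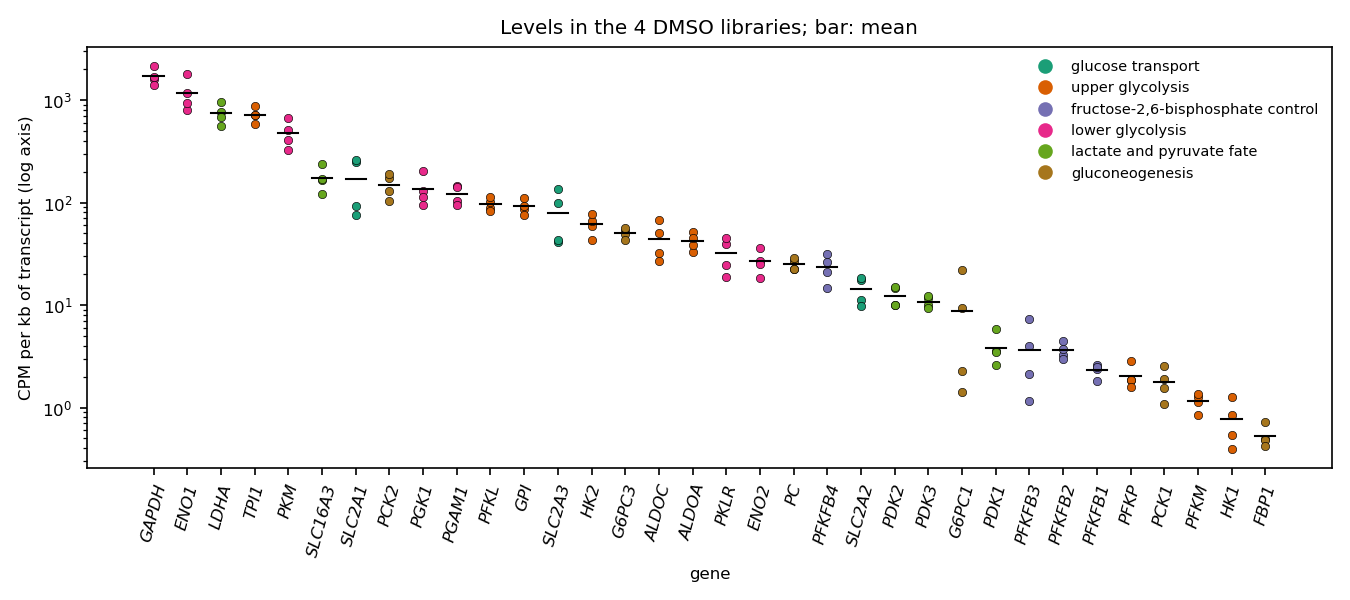
Levels of the 34 tested genes in the 4 DMSO libraries, in CPM per kb of transcript on a log axis, ordered by their mean (black bar) and coloured by role. The 5 genes at the left, GAPDH to PKM, lie apart from the rest on this length-scaled axis, and G6PC1 has the widest spread.

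The question of the design, which genes each compound moves against its vehicle, gave calls among these genes for BPA and TCDD and for no other compound. With BPA, 18 of the 34 genes were called (Benjamini-Hochberg adjusted p under 0.05 over all 18849 genes tested, quasi-likelihood test of edgeR), 4 higher and 14 lower, where 35% of all tested genes were called, 17.3% higher and 17.6% lower. The median log2 fold change was -0.37 over the 34 genes and -0.02 over all tested genes. In groups that did not overlap stood 14 genes, 5 higher and 9 lower with BPA, where 37.2% of all tested genes did so (20.1% higher and 17.1% lower). With TCDD, 6 were called, 3 higher and 3 lower, where 9.25% of all tested genes were (6.45% higher and 2.8% lower), and the same 6 were those whose groups did not overlap, where 15.3% of all did so (9.38% higher and 5.95% lower). The medians with TCDD were -0.11 and -0.01. Leaving out BPA replicate 1 lowered the count of 18 to 11, where 28.7% of all tested genes were called. Leaving out DMSO replicate 3 or TCDD replicate 2 lowered the count of 6 to 3, where 7.53% and 6.38% were. Scaling by upper quartile or by library size alone lowered the median of all genes in BPA by 0.13 and by 0.12 on the log2 scale. Under them 19 and 20 of the 34 genes were called, 4 of them higher, while calls over all genes went from 3268 higher and 3320 lower to 2239 and 4345, and to 2169 and 4321.

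**Figure D2:**
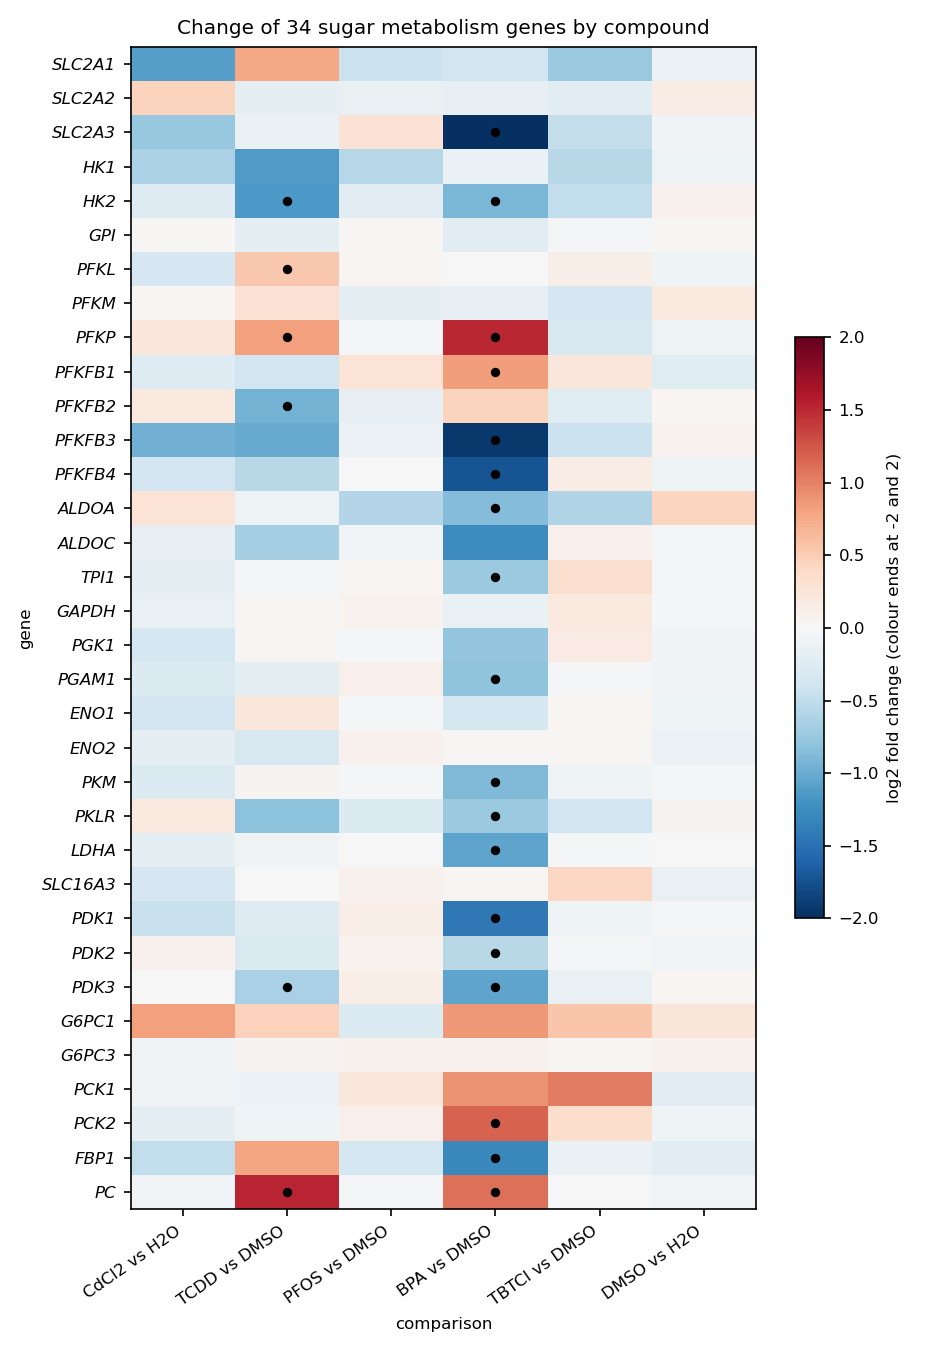
Log2 fold change of the 34 tested genes (rows) in 6 comparisons (columns), with colours ending at -2 and 2 and a black dot on each gene called. Dots are found in the TCDD column (6) and the BPA column (18) and in no other.

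The libraries of a group were not alike in these genes. Replicate 4 held the highest level of 25 of the 34 genes in H2O, 23 in CdCl2, 23 in DMSO, 21 in PFOS, 29 in BPA and 20 in TBTCl, but of 4 in TCDD, where replicate 3 led for 17. Over all tested genes, libraries with the same number deviated together from their group means for BPA and DMSO (correlation 0.173 to 0.269 in the 4 pairs). For TCDD and DMSO they did not (-0.212 to 0.439). The correlation over the 34 genes alone was not computed. Within the 4 numbers, BPA was below DMSO in all 4 for 16 of the 34 genes and above in all 4 for 5. The share of all tested genes that did so was not computed, so nothing is read from these counts. Blocking the fit by replicate number gave 21 genes with BPA, 5 higher and 16 lower: the 18 and 3 more, which are ALDOC, PGK1 and G6PC1. Under that block 42.9% of all tested genes were called, 4043 higher and 4041 lower.

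**Figure D3:**
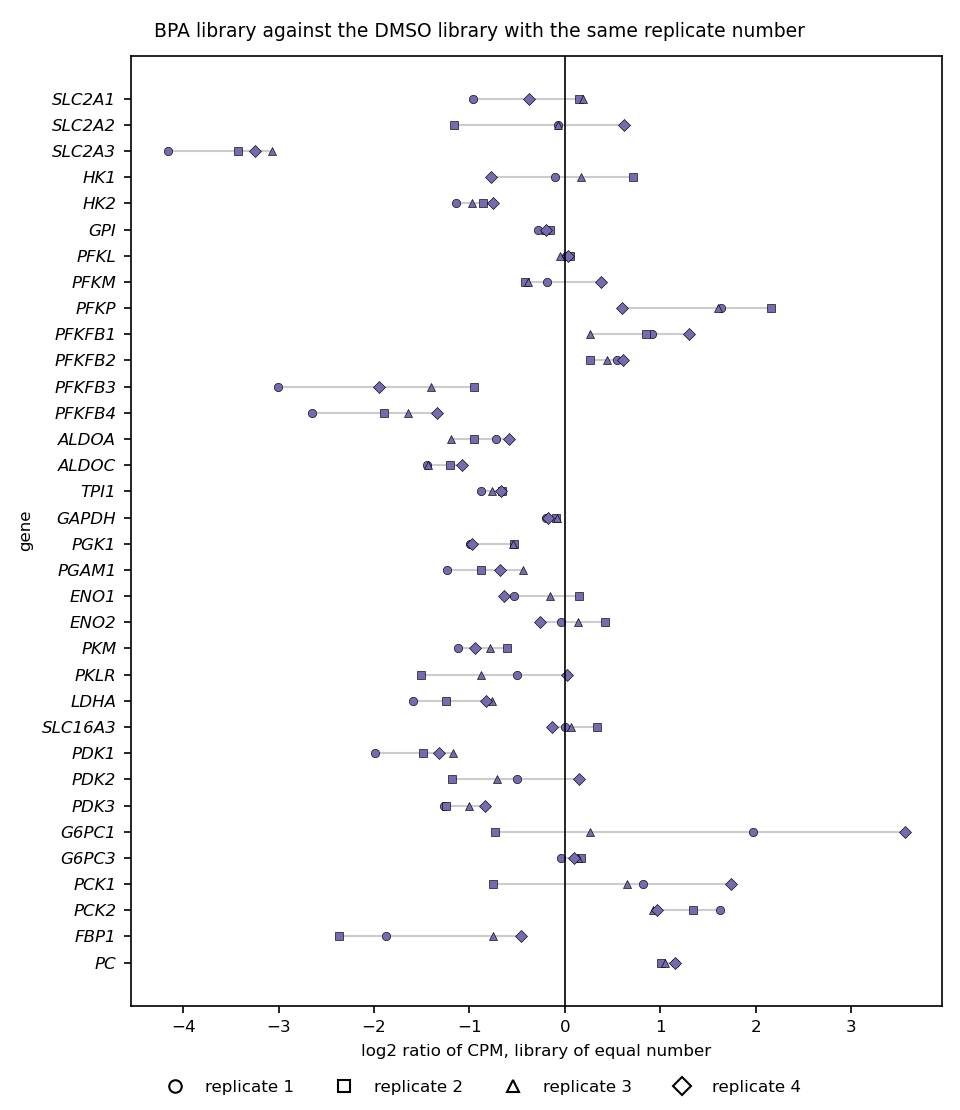
Log2 ratio of CPM in each BPA library to the DMSO library with the same replicate number, 1 row per gene and 1 point per number, with a grey line from lowest to highest. All 4 points lie left of 0 for 16 genes and right of 0 for 5, and those of G6PC1 span the widest range. The share of all tested genes with 4 points on 1 side was not computed.

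Of the 3 glucose transporter genes, BPA lowered 1 and raised none, where 17.6% of all tested genes were called lower and 17.3% higher. SLC2A3, which encodes the high-affinity transporter GLUT3, stood at 383, 160, 170 and 525 CPM in DMSO replicates 1 to 4 and at 21.4, 14.9, 20.1 and 55.3 CPM in BPA. The highest BPA library was below the lowest of DMSO. SLC2A3 was 11.1-fold lower (log2 fold change -3.47, SE 0.57, adjusted p = 5.06e-05 with edgeR), and no other of the 34 genes changed as much. SLC2A14, a near copy of SLC2A3 that could share its reads, stood at 14.4 ± 4.14 CPM in DMSO and 5.88 ± 3.04 CPM in BPA and was called as well (-1.29, SE 0.33, adjusted p = 0.00360, edgeR). SLC2A1, the gene of GLUT1, varied from 274 to 954 CPM in DMSO and from 314 to 736 CPM in BPA, and the groups overlapped. Its change with BPA was -0.38 (95% interval -1.28 to 0.51). As a share of the length-scaled level of the 3 transporters, SLC2A3 made up 29.9% ± 3.06 in DMSO and 4.51% ± 1.24 in BPA, and SLC2A1 62.4% ± 6.06 and 86.2% ± 4.84, as a description without a test.

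With TCDD the transporters SLC2A1, SLC2A2 and SLC2A3 did not pass the test in the main fit. With the replicate block SLC2A1 was called (1.01, adjusted p = 0.00875, edgeR), but the numbers do not pair TCDD with DMSO. SLC2A1 stood at 895, 857, 1303 and 1149 CPM in TCDD against 903, 339, 274 and 954 CPM in DMSO. DMSO replicates 2 and 3 lay far below replicates 1 and 4, and the groups overlapped (0.77, 95% interval -0.13 to 1.67). SLC2A2, the gene of the liver transporter GLUT2, was at 31.6 to 58.8 CPM in DMSO, 31.7 to 45.8 CPM in TCDD and 25.3 to 56.0 CPM in BPA. Among 11 tested transporters of a related list, TCDD moved 1, SLC2A8, the gene of the intracellular transporter GLUT8, from 48.9 ± 10.4 to 222 ± 33.97 CPM (2.19, SE 0.24). BPA moved 4 of the 11, 2 up and 2 down. Of all tested genes, 35% were called with BPA (17.3% higher and 17.6% lower) and 9.25% with TCDD.

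Hexokinase 2, which phosphorylates glucose on entry, fell with both compounds. HK2 stood at 339, 251, 378 and 448 CPM in DMSO, at 99.8, 162, 207 and 172 CPM in TCDD and at 153, 139, 193 and 267 CPM in BPA. All TCDD libraries lay below all DMSO libraries, and 1 BPA library, replicate 4, exceeded the lowest of DMSO. The fall was 2.21-fold with TCDD (-1.14, SE 0.27, adjusted p = 0.00488) and 1.88-fold with BPA (-0.91, SE 0.27, adjusted p = 0.00950, both edgeR). Compared directly, BPA and TCDD differed in HK2 by 0.23 (95% interval -0.32 to 0.78). GCKR, which encodes the protein that holds back glucokinase, rose from 19.1 ± 4.19 CPM in DMSO to 50.6 ± 9.74 CPM in TCDD (1.41, SE 0.20) and 55.2 ± 9.68 CPM in BPA (1.53, SE 0.20). HKDC1, a further hexokinase gene that is not among the 35 and not in the HK1 and HK2 share, rose with BPA from 59.6 to 150.1 CPM (1.33, SE 0.26).

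**Figure D4:**
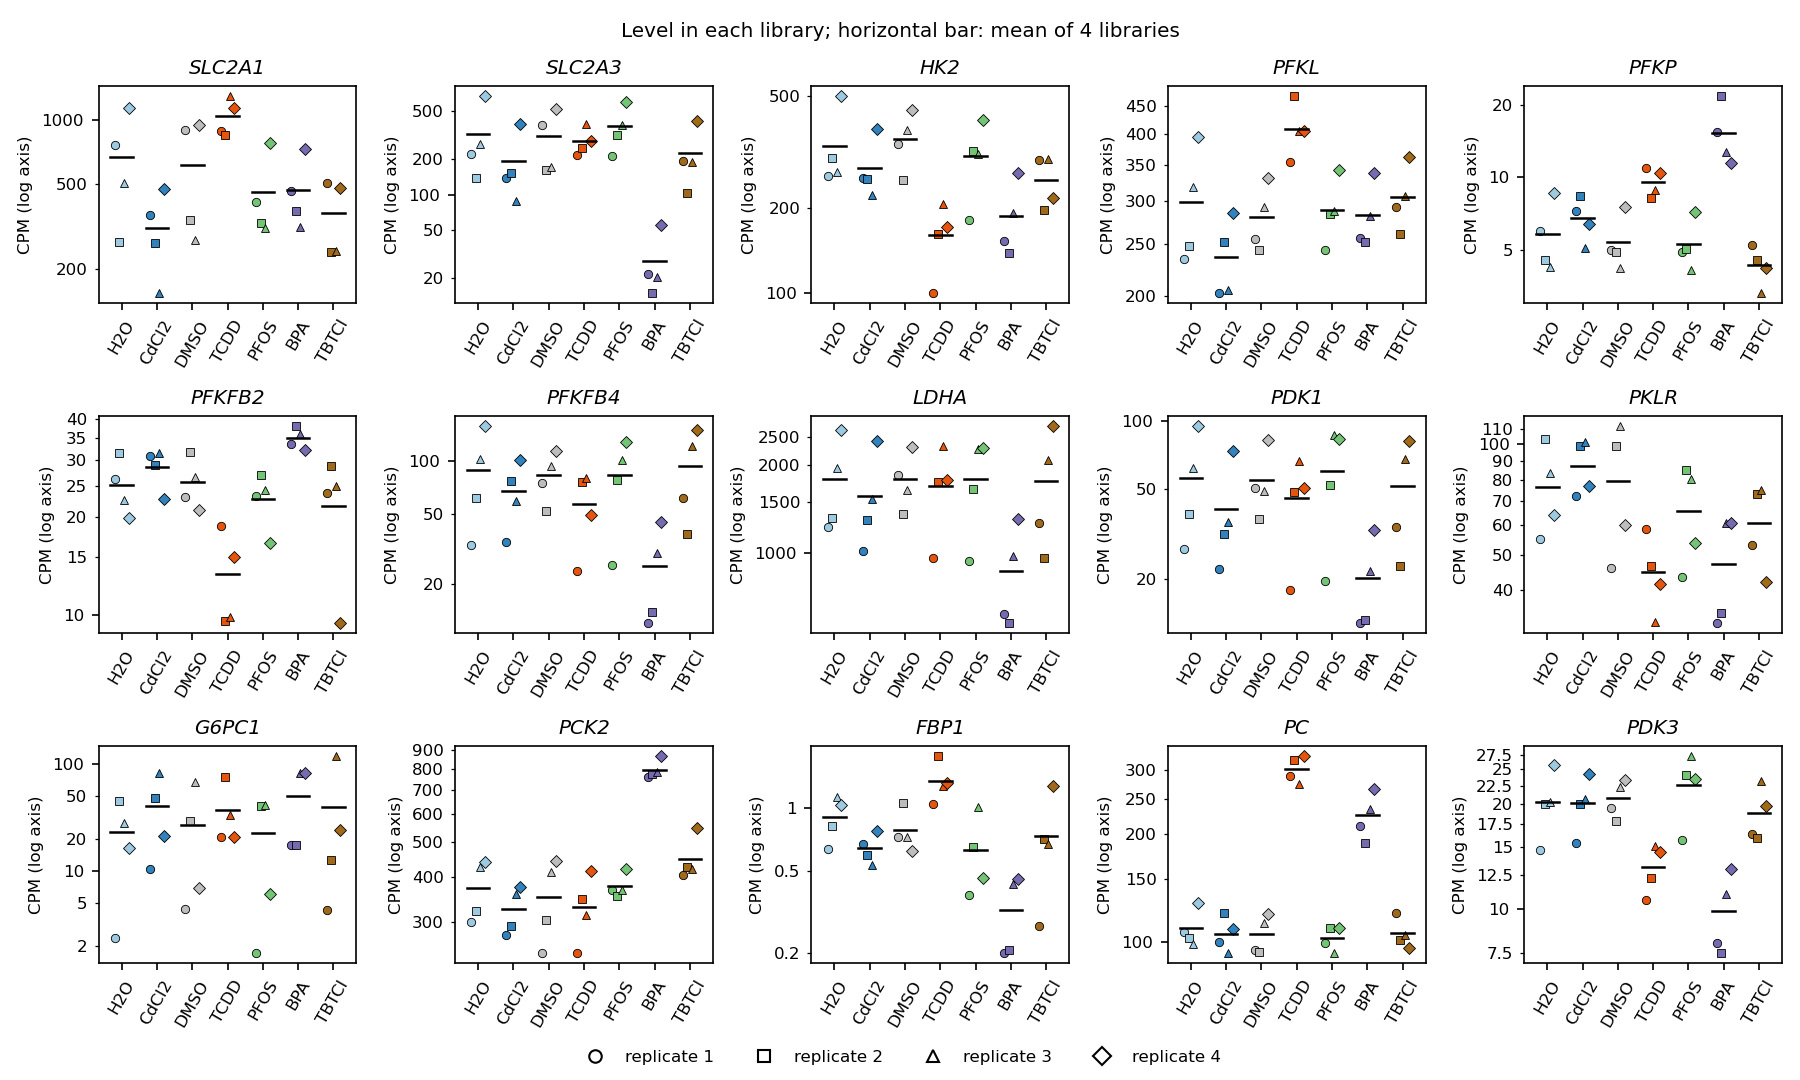
CPM on a log axis in each library for 15 genes, with 1 marker shape per replicate number and a bar at the mean of 4 libraries. SLC2A3 in BPA, PC in TCDD and BPA, and PCK2 in BPA lie apart from every DMSO library, and G6PC1 spreads from 4.42 to 68.0 CPM within DMSO alone.

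Phosphofructokinase, the main gate of glycolysis, has 3 genes, of which BPA raised 1 and TCDD raised 2. BPA called 17.3% of all tested genes higher, and TCDD 6.45%. PFKP, the platelet-type subunit, stood at 4.97, 4.88, 4.19 and 7.53 CPM in DMSO, at 15.4, 21.8, 12.7 and 11.4 CPM in BPA and at 11.0, 8.16, 8.81 and 10.4 CPM in TCDD. Every BPA and TCDD library was above every DMSO library. The rise was 2.84-fold with BPA (1.51, SE 0.24, adjusted p = 3.11e-05) and 1.77-fold with TCDD (0.83, SE 0.24, adjusted p = 0.0244, edgeR). The liver form PFKL rose with TCDD, from 255, 243, 293 and 332 CPM in DMSO to 355, 471, 405 and 406 CPM (0.54, SE 0.16, adjusted p = 0.0293, edgeR), and the direct test of BPA against TCDD was called (-0.54, adjusted p = 0.00990, edgeR). The TCDD call of PFKP was lost without DMSO replicate 1, 2 or 3 or TCDD replicate 1 or 4 (adjusted p 0.0716 to 0.0910), and that of PFKL without DMSO replicate 1, 2 or 3 or TCDD replicate 2, 3 or 4 (0.0522 to 0.123). With H2O in place of DMSO they were not called either (0.0556 and 0.0800), nor was PFKL with the block and only the 8 libraries compared (0.0520). PFKP held 2.03% ± 0.37 of the length-scaled phosphofructokinase level in DMSO and 5.73% ± 2.18 in BPA. PFKM overlaps SENP1 on the opposite strand, whose mean count is 542% of its own, and was at 2.74 to 4.34 CPM in DMSO with no call.

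Fructose-2,6-bisphosphate activates phosphofructokinase and restrains fructose-1,6-bisphosphatase, and 4 genes encode the enzymes that make and remove it. BPA moved them in opposite directions. PFKFB4 fell from 75.7, 52.1, 94.6 and 114 CPM in DMSO to 12.0, 13.9, 30.3 and 44.9 CPM, with no overlap (-1.73, SE 0.53, adjusted p = 0.0129, edgeR). PFKFB3, the strongly kinase-biased form, fell from 17.7, 5.18, 9.54 and 32.7 CPM to 2.19, 2.69, 3.61 and 8.47 CPM, with overlap of BPA replicate 4 and DMSO replicate 2 (-1.94, SE 0.71, adjusted p = 0.0364, edgeR). PFKFB1, the liver form, rose from 4.57, 5.01, 4.82 and 3.51 CPM to 8.58, 9.01, 5.79 and 8.63 CPM, with no overlap (0.84, SE 0.19, adjusted p = 0.00117, edgeR). The call of PFKFB3 rested on single libraries: its log2 fold change was -1.34 without DMSO replicate 4 (adjusted p = 0.164, edgeR), -2.53 without BPA replicate 4 (still called), and uncalled also without DMSO replicate 1 or BPA replicate 1, 2 or 3 (lowest adjusted p = 0.0598). PFKFB2, the heart form, was higher in every BPA library (32.1 to 38.1 CPM) than in any of DMSO (21.0 to 31.8 CPM) but was not called (0.45, adjusted p = 0.156, edgeR).

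TCDD lowered PFKFB2, to 18.8, 9.54, 9.83 and 15.0 CPM from 23.0, 31.8, 26.5 and 21.0 CPM in DMSO. No library overlapped (-0.94, SE 0.25, adjusted p = 0.0129, edgeR), and the direct test of BPA against TCDD gave 1.39 (SE 0.25, adjusted p = 9.25e-05). The TCDD call was lost without DMSO replicate 2 or TCDD replicate 2 or 3 (adjusted p 0.0520 to 0.0693), and with the block and only the 8 libraries compared (0.0583). PFKFB2 overlaps YOD1 on the opposite strand, whose mean count is 53.2% of its own and which stood at 14.3 ± 1.84 CPM in DMSO and 10.2 ± 2.38 CPM in TCDD. The sources used here do not say how the counting treated strand, so reads of the 2 genes could have been mixed.

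**Figure D5:**
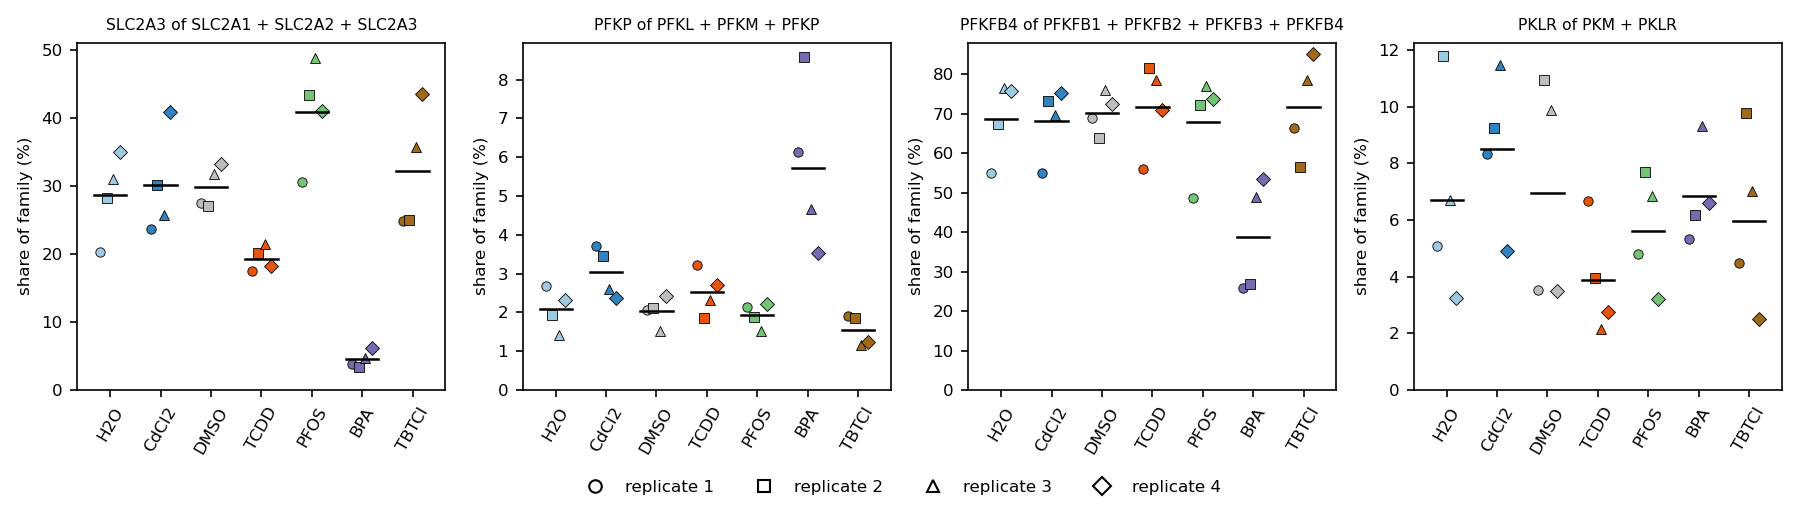
Share of 1 gene in the length-scaled level of its family, in percent, for each library (marker shape gives the replicate number) and the mean (bar), in 7 groups. The share of SLC2A3 is 3.33% to 6.15% in BPA and 27.0% to 33.2% in DMSO, that of PFKFB4 is 25.7% to 53.5% in BPA and 63.8% to 75.9% in DMSO, and the pyruvate kinase PKLR shows overlapping groups.

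Along the chain from aldolase to pyruvate kinase, BPA lowered 5 of the 10 genes (ALDOA, TPI1, PGAM1, PKM and PKLR) and raised none. TCDD moved none of them without the replicate block. Of all tested genes, 17.6% were called lower and 17.3% higher with BPA, and 9.25% in either direction with TCDD. TPI1, triosephosphate isomerase, fell from 719 to 1069 CPM in DMSO to 454 to 672 CPM (-0.74, SE 0.27, adjusted p = 0.0319), and PGAM1, phosphoglycerate mutase, from 171 to 266 CPM to 103 to 161 CPM (-0.81, SE 0.18, adjusted p = 0.00103, both edgeR). Neither overlapped DMSO. PKM stood at 1376, 881, 1118 and 1817 CPM in DMSO and at 634, 577, 650 and 948 CPM in BPA, where replicate 4 passed the lowest of DMSO (-0.89, SE 0.30, adjusted p = 0.0218, edgeR). ALDOA was -0.86 (SE 0.23, adjusted p = 0.00488, edgeR) but is uncertain, because its locus is shared with another annotated gene on the same strand, and with H2O in place of DMSO it was not called (-0.44, adjusted p = 0.146, edgeR). With the replicate block, ALDOC (-1.30, adjusted p = 0.000213) and PGK1 (-0.78, adjusted p = 0.00390) passed as well (edgeR), where they had 0.0585 and 0.109 without it. GAPDH, often used as a reference gene, was at 2646 to 4014 CPM in DMSO and 2486 to 3549 CPM in BPA (-0.14, 95% interval -0.59 to 0.31), and ENO1, ENO2 and GPI were not called either. The call of TPI1 was lost without DMSO replicate 1, 3 or 4 or BPA replicate 1, 2 or 3 (adjusted p 0.0512 to 0.0880), and that of PKM without DMSO replicate 4 or BPA replicate 1, 2 or 3 (0.0530 to 0.0930).

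PKLR, the liver and red cell pyruvate kinase, stood at 46.0, 98.6, 112 and 60.2 CPM in DMSO, 32.5, 34.6, 60.9 and 60.98 CPM in BPA and 58.5, 46.6, 32.8 and 41.6 CPM in TCDD. The DMSO libraries spread widely and overlapped both groups. PKLR was called with BPA (-0.75, SE 0.28, adjusted p = 0.0406) and not with TCDD (-0.82, SE 0.28, adjusted p = 0.0686, both edgeR). With the replicate block it was called with TCDD too (-0.71, adjusted p = 0.0432, edgeR), but the numbers do not pair TCDD with DMSO. The direct difference of BPA and TCDD was 0.07 (95% interval -0.51 to 0.66). The BPA call was lost without DMSO replicate 2 or 3 or BPA replicate 1 or 2 (adjusted p 0.116 to 0.171), with H2O as control (0.0596) and with only the 8 libraries compared (0.0634). PKLR overlaps HCN3 on the opposite strand, whose mean count is 12.1% of its own. HCN3 stood at 7.77 ± 0.697 CPM in DMSO, 8.00 ± 0.385 CPM in BPA and 10.1 ± 0.720 CPM in TCDD.

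LDHA, the subunit that turns pyruvate into lactate, was lower with BPA. It stood at 1851, 1355, 1648 and 2318 CPM in DMSO and at 613, 570, 973 and 1307 CPM in BPA, with no overlap. That was 2.07-fold lower (-1.05, SE 0.36, adjusted p = 0.0240, edgeR), and in TCDD, at 959 to 2327 CPM, it was -0.07 (95% interval -0.81 to 0.66). SLC16A3, which exports the lactate, was not called with BPA (586 to 1156 CPM in DMSO, 739 to 1053 CPM in BPA; 0.04, 95% interval -0.63 to 0.70) and overlaps CSNK1D on the opposite strand, whose mean count is 20.9% of its own. Without DMSO replicate 4 or BPA replicate 1 or 2 the call of LDHA was lost (adjusted p 0.0693 to 0.0823).

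PDK1, PDK2 and PDK3, the genes of kinases that switch off pyruvate dehydrogenase, and so keep pyruvate out of the citric acid cycle, each fell with BPA. PDK1 stood at 50.3, 36.6, 48.9 and 82.4 CPM in DMSO and 12.7, 13.1, 21.8 and 33.0 CPM in BPA (-1.44, SE 0.49, adjusted p = 0.0251, edgeR). PDK3 stood at 19.4, 17.8, 22.3 and 23.3 CPM in DMSO, 8.05, 7.49, 11.1 and 13.0 CPM in BPA and 10.6, 12.3, 15.2 and 14.6 CPM in TCDD. Neither gene overlapped DMSO in these groups. PDK3 fell with BPA (-1.06, SE 0.20, adjusted p = 0.000204) and with TCDD (-0.65, SE 0.20, adjusted p = 0.0334, both edgeR), and PDK2 with BPA (-0.56, SE 0.18, adjusted p = 0.0192, edgeR). The calls were lost for PDK1 without DMSO replicate 4 or BPA replicate 1 or 2 (adjusted p 0.0772 to 0.0838), for PDK2 without DMSO replicate 2 or 3 or BPA replicate 1 or 2 (0.0612 to 0.0734), and for PDK3 with TCDD without DMSO replicate 3 or 4 or TCDD replicate 1 or 2 (0.0813 to 0.103). Of 10 tested genes of pyruvate dehydrogenase and mitochondrial pyruvate entry, BPA lowered 1, the pyruvate carrier subunit MPC2 (-0.68, SE 0.14), and raised none. TCDD raised PDP1, a phosphatase that switches the complex on (5.19 to 12.6 CPM, 1.28, SE 0.26), and lowered PDP2 and MPC1 (-0.61 and -0.60). Over all tested genes, 17.3% were called higher and 17.6% lower with BPA, and 6.45% and 2.8% with TCDD.

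Of the 6 gluconeogenic genes, BPA raised 2 and lowered 1, and TCDD raised 1 and lowered none. Among all tested genes, BPA called 17.3% higher and 17.6% lower, and TCDD 6.45% and 2.8%. PC, pyruvate carboxylase, which makes oxaloacetate from pyruvate in the mitochondrion, stood at 94.6, 93.7, 113 and 119 CPM in DMSO. It stood at 290, 320, 274 and 328 CPM in TCDD and at 210, 188, 235 and 266 CPM in BPA. The 3 groups did not overlap. PC rose 2.88-fold with TCDD (1.53, SE 0.12, adjusted p = 8.36e-10) and 2.14-fold with BPA (1.10, SE 0.12, adjusted p = 1.81e-07), and BPA was below TCDD when compared directly (-0.43, SE 0.12, adjusted p = 0.00549, all edgeR). LRFN4 lies on the opposite strand within PC with 10.2% of its mean count, at 13.7 ± 0.905 CPM in DMSO, 7.65 ± 2.13 CPM in TCDD and 22.8 ± 2.95 CPM in BPA.

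PCK2, which turns oxaloacetate into phosphoenolpyruvate inside the mitochondrion, rose with BPA. It stood at 246, 304, 413 and 444 CPM in DMSO, 756.4, 772, 785 and 866 CPM in BPA and 246, 348, 313 and 416 CPM in TCDD. BPA lay above both without overlap, 2.26-fold above DMSO (1.18, SE 0.17, adjusted p = 1.31e-05) and 2.40-fold above TCDD (1.26, SE 0.17, adjusted p = 2.98e-06, both edgeR). PCK1, the cytosolic form, was at 4.66, 6.76, 10.9 and 8.27 CPM in DMSO and at 8.23, 4.02, 17.1 and 27.6 CPM in BPA, and overlapped (0.89, adjusted p = 0.133, edgeR).

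Of the later steps, FBP1 fell with BPA, and neither G6PC gene was called without the replicate block. FBP1, fructose-1,6-bisphosphatase, stood at 0.731, 1.07, 0.724 and 0.623 CPM in DMSO and 0.200, 0.207, 0.430 and 0.454 CPM in BPA (-1.29, SE 0.37, adjusted p = 0.00882, edgeR), and at 1.05 to 1.78 CPM in TCDD (0.79, adjusted p = 0.159, edgeR). BPA and DMSO did not overlap, but the antisense gene PCAT7 across FBP1 had 792% of its mean count (6.69 ± 1.82 CPM in DMSO, 5.15 ± 0.963 CPM in BPA), so FBP1 is uncertain without the strand setting. G6PC1, the catalytic subunit of liver glucose-6-phosphatase, stood at 4.42, 28.9, 68.0 and 6.98 CPM in DMSO and 17.3, 17.4, 81.6 and 82.8 CPM in BPA. The libraries of 1 group differed more than the group means (0.87, SE 0.98), and with the replicate block the change was called at 1.59 (adjusted p = 0.0453, edgeR), with a lower BPA value in number 2. G6PC3, the form present in all tissues, stayed between 66.5 and 86.2 CPM in DMSO and 73.4 and 91.9 CPM in BPA (0.09, 95% interval -0.14 to 0.32).

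Of 7 tested genes of other gluconeogenic steps, BPA raised 2 and lowered 1. It called 17.3% of all tested genes higher and 17.6% lower. GOT1, the cytosolic aspartate aminotransferase, rose with BPA from 155 ± 28.0 to 271 ± 16.9 CPM (0.80, SE 0.12) and fell with TCDD to 79.4 ± 7.80 CPM (-0.97, SE 0.12). SLC37A4, which carries glucose-6-phosphate to glucose-6-phosphatase, fell with BPA (-0.68, SE 0.17). Of 10 tested glycogen genes, BPA raised 2 and lowered 5 (17.3% and 17.6% of all tested genes), with a median of -0.45. PPP1R3C, which targets a phosphatase to glycogen, fell from 25.8 to 7.88 CPM (-1.71, SE 0.26) and GYS1, a glycogen synthase, from 56.9 to 26.9 CPM (-1.08, SE 0.25), while PYGB, a phosphorylase, rose (1.02, SE 0.12). Of 12 tested glycolytic genes outside the 35, BPA raised 3 and lowered 3, and TCDD raised 1. The shares of all tested genes were 17.3% higher and 17.6% lower with BPA, and 6.45% higher with TCDD.

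Among 16 regulators of these genes, BPA raised 8 and lowered none, with a median of 0.43, while 17.3% of all tested genes were called higher. PPARGC1A, a coactivator of gluconeogenic genes, went from 16.4 ± 2.93 to 55.9 ± 7.68 CPM (1.77, SE 0.16). The glucocorticoid receptor gene NR3C1 went from 17.3 ± 2.06 to 36.1 ± 1.88 CPM (1.06, SE 0.12), and EPAS1, which encodes HIF-2 alpha, from 137 ± 21.6 to 249 ± 11.6 CPM (0.86, SE 0.16). TCDD raised NR3C1 to 46.5 ± 2.95 CPM (1.42, SE 0.12) and the carbohydrate response factor gene MLXIPL (0.62, SE 0.16), and lowered ARRDC4, a target of that factor (-1.88, SE 0.54). None of the genes of these lists of related sugar metabolism genes was called with CdCl2, PFOS or TBTCl, nor between DMSO and H2O. Of the 8 tested markers of other cell types, 1 was called higher with TBTCl, where 0.143% of all tested genes were called.

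CdCl2, PFOS and TBTCl called none of the 34 genes, where 0.0212%, 0.0159% and 0.143% of all tested genes were called with edgeR, and DMSO against H2O called none, where 0% were. At an unadjusted p under 0.05 stood 2 genes with CdCl2 (SLC2A1 and PFKL, both lower), 1 with PFOS (ALDOA, lower), 3 with TBTCl (ALDOA lower, PCK1 and PCK2 higher) and 0 in DMSO against H2O. Over all 18849 tested genes, 940, 1043, 2937 and 431 stood there in these comparisons, and nothing is read from the counts among the 34. DESeq2 called none of the 34 genes in these comparisons, and 0.0648%, 0.497%, 1.36% and 0.00239% of all genes it tested. SLC2A1 was 154 to 478 CPM in CdCl2 against 267 to 1142 CPM in H2O (-1.09, 95% interval -2.002 to -0.19, adjusted p = 0.898, edgeR). The widths differ by gene: for PC the interval with CdCl2 was -0.30 to 0.20 and for SLC2A3 with PFOS it was -0.78 to 1.37.

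Direct tests between compounds, given at unlike doses, gave 15 called genes for BPA against TCDD (5 higher and 10 lower in BPA), where 38.3% of all tested genes were called (17.8% higher and 20.4% lower). With upper-quartile scaling the split was 3 higher and 14 lower, and with library size alone 3 and 13. Over all tested genes these scalings gave 2434 higher and 4859 lower, and 2582 and 4494. BPA against TBTCl called 16 (5 higher and 11 lower), where 34.8% of all were (16.7% higher and 18.1% lower). It called 10 without BPA replicate 1 (29.3% of all), 9 without BPA replicate 2 (26.1%) and 9 without TBTCl replicate 4 (29.9%). TCDD against TBTCl called 4, where 12.8% were (7.26% higher and 5.58% lower): SLC2A1 (1.52), PFKP (1.15) and PC (1.52) were higher and PFKFB1 (-0.62) lower. Without TCDD replicate 3 or TBTCl replicate 2 these were 2. With library size alone 6 genes were called higher and 0 lower, where 1547 of all tested genes were higher and 720 lower. SLC2A3 was lower in BPA than in TCDD (-3.34, SE 0.57) and than in TBTCl (-3.00, SE 0.56).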

How the data were processed

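Poly(A) RNA was sequenced from directional libraries, per the labels. The authors deposited whole-number read counts per gene, made with fastp, STAR and HTSeq on GRCh38, with DESeq2 also named, per the submitters' processing notes. Not given in the sources used here were versions, annotation release and strand setting. The last of 63140 entries was left out because the file ends inside it. The members and gene lists were chosen with earlier results of these data known.

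All 28 libraries entered 1 fit (R 4.3.3, edgeR 4.0.16 quasi-likelihood, TMM, filterByExpr with minimum count 10), with 21 residual degrees of freedom and a biological coefficient of variation of 22.0%. Genes were called at an adjusted p under 0.05. SE is the log2 fold change divided by the root of F. Levels are TMM-scaled CPM. Transcript lengths are from GENCODE release 29, for the longest of the transcripts of each gene tagged there as principal in the best rank. DESeq2 1.42.0 was the other tool. On simulated counts the fit was checked first. In each library 3 counts equal 0.0454 to 0.104 CPM, which covers counting error only. The labels give 4 independent experiments but do not say whether a number marks the same one in each group, so p-values measure the spread between these libraries. A replicate block was read as pairing where all 4 same-number pairs correlated above 0.1 over all tested genes (every comparison with a vehicle except TCDD, and BPA against TBTCl). No library was a copy of another in its group (chi-square per gene 24.8 to 334).

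Genes described by library were those called against a vehicle with a mean of at least 5 CPM, at most 8 per comparison by size of change, plus the rate-controlling genes and transporters. Related genes were named where called, at most 3 per list. Alternatives were scaling, the low-count filter, DESeq2, the block, the 8 libraries compared alone, H2O as control and each library left out.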

Additional observations from a re-analysis of the deposited data

Results flagged for a closer look

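In 6 of 238 sets of 4 libraries (1 gene in 1 group), 1 library stood apart from the other 3 by more than Dixon's critical value allows, and chance alone gives about 1 in 20. SLC2A3 in BPA was 55.3 CPM in replicate 4 and 14.9 to 21.4 CPM in the others, still below every DMSO library. HK1 was 5.80 CPM in H2O replicate 4 (others 1.87 to 2.33) and 3.04 CPM in PFOS replicate 4 (others 1.38 to 1.60). GPI was 534 CPM in H2O replicate 4 (others 315 to 341), and PCK2 was 547 CPM in TBTCl replicate 4 (others 406 to 427). PFKFB1 in BPA was 5.79 CPM in replicate 3, below the others at 8.58 to 9.01. Of the 6, 5 are the replicate 4 library of their group, which was also the library with the highest level of most of these genes outside TCDD.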

How the results depend on the processing

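Of the 35 genes, none called with BPA or TCDD against DMSO changed direction in 18 alternatives each; single genes in the direct comparisons and the related lists were not followed through them. Of 6 genes called with TCDD, 2 (HK2 and PC), and of 18 with BPA, 10, kept their call in every one. Leaving out 1 library gave 3 to 5 called genes for TCDD, 11 to 19 for BPA, 10 to 17 for BPA against TCDD, 9 to 18 for BPA against TBTCl and 2 to 6 for TCDD against TBTCl, and 0 for the other comparisons. Of all tested genes, these fits called 6.38% to 8.77% for TCDD and 27.4% to 31.9% for BPA. They called 31.9% to 35.8% for BPA against TCDD and 26.1% to 36% for BPA against TBTCl. The share is not given here for TCDD against TBTCl. The 8 libraries alone gave 10 genes for BPA against TBTCl, where 21.2% of all were called, against 34.8% in the main fit. The replicate numbers do not pair TCDD with DMSO, TBTCl or BPA. The block gave 9 genes for TCDD (4 higher, 5 lower, 14.4% of all genes), adding SLC2A1, HK1 and PKLR to the 6. It gave 13 for TCDD against TBTCl (19% of all). For BPA against TCDD the block gave 22 (46.1% of all). With the block and only the 8 libraries these were 4, 3 and 21 (7.74%, 4.07% and 41.9% of all). The cause was not tested. For BPA against TBTCl, whose numbers pair, the block gave 18 (42.5% of all). With the block and only 8 libraries, an alternative chosen after seeing the data, PFOS called 1 gene, ALDOA (1.91% of all). With H2O as control, TCDD called 6 genes (9.08% of all), 1 higher and 5 lower: PFKL and PFKP were lost and HK1 (-1.24) and PFKFB1 (-0.63) were called. Over all tested genes, 23 of 28 libraries correlated best with their own number. Outside BPA the block changed no call of the 34 genes in a paired vehicle comparison. From raw counts in place of length-scaled ones, the share of HK2 in its family was 99.3% in DMSO and 98.6% in BPA, and that of PCK2 97.9% and 98.3% (the values differ only in the scaling by length). The effect of depth was not tested; FBP1 had the fewest reads of the 34 genes, 35.4 per library on average.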
